A study of Mus musculus with 9 samples.

Results

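Caveolae are small flask-shaped pits of the plasma membrane, and the 7 genes described here, Cav1, Cav2, Cavin1, Cavin2, Cavin3, Ehd2 and Pacsin2, encode proteins that build or hold them. The genes were chosen by symbol from 35896 genes measured, and the choice was made knowing that Cav2 rises when self-renewal factors are withdrawn and is lower with CK666. The values of Cav2 in these comparisons are therefore given as a description, with no test. The study measured poly-A RNA in E14, a mouse embryonic stem cell line, in 9 libraries, 3 in each of 3 groups, with replicates that the study calls biological and paired. Control +LIF2i cells stayed in self-renewal medium, which contains the cytokine LIF, the MEK inhibitor PD0325901 and the GSK3 beta inhibitor CHIR99021. Control -LIF2i cells were untreated and without these factors for 72 h, and CK666 -LIF2i cells spent the same 72 h without them and with 80 µM CK666, an inhibitor of the Arp2/3 complex that nucleates branched actin. All groups grew in the same serum-containing base medium, and the labels name no genetic change. CK666 was dissolved in DMSO, and no label mentions DMSO for the controls, so drug and solvent cannot be told apart.

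A caveola forms when caveolins, which insert into the inner leaflet of the membrane as oligomers, are covered by a coat of cavins. Cav1 is the caveolin that pit formation requires outside striated muscle, Cav2 partners with it, and Cavin1 is the essential coat protein, while Cavin2 and Cavin3 are coat proteins that bind Cavin1. Ehd2 is an ATPase that sits at the neck and anchors the pit to the membrane, and Pacsin2 is an F-BAR protein that bends membrane at caveolae and at other endocytic sites. Caveolae are abundant in fibroblasts, endothelial cells, adipocytes and muscle, and link the membrane to actin stress fibres.

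The library totals were 16894327 to 22550952 estimated counts, and the floor for detection, set at 3 counts in a library, equals 0.133 to 0.178 CPM (counts normalised for library size with TMM factors). Floors and counting intervals cover counting error alone, because no label mentions molecular identifiers and reads can be copies of the same molecule. The replicate 1 libraries stood apart from the others, with 15690 to 17605 genes above 0 against 18166 to 18749 in replicates 2 and 3. Markers of embryonic stem cells were present throughout, with 6 of 6 above 3 counts in every library of each group and a summed level of 4170 to 4710 CPM with LIF2i, 1410 to 1570 CPM without, and 1580 to 1870 CPM with CK666. Pou5f1, which was not called on withdrawal (edgeR adjusted p 0.42), made up most of the sums without LIF2i, with means of 1090 and 1180 CPM, while the other 5 markers were lowered on withdrawal, Klf4 from 255 to 4.45 CPM and Esrrb from 879 to 29.9 CPM. Lists of 7 markers each for fibroblasts, endothelium and extraembryonic endoderm, and 6 for striated muscle, were summed in the same way. Fibroblast markers were at 6.14 to 9.39 CPM with LIF2i, 29.4 to 33.0 CPM without and 17.4 to 26.7 CPM with CK666, with 2, 5 and 4 of 7 above 3 counts in every library and Lum at 0 in the first and last group. Endothelial markers were at 218 to 290, 18.3 to 33.8 and 27.4 to 91.5 CPM, with 5, 4 and 4 of 7 above 3 counts in every library and Emcn at 0 throughout; Pecam1, which naive stem cells also express, made up 176 to 216 CPM of the first range. Extraembryonic endoderm markers were at 11.2 to 14.4, 20.1 to 49.5 and 25.9 to 40.4 CPM, with 3, 5 and 5 of 7 above 3 counts in every library and Afp at 0 with LIF2i. Of these, Dab2 had means of 2.93, 21.3 and 18.9 CPM and was the only 1 of 5 tested called on withdrawal. Gata4 had means of 7.84, 6.44 and 11.8 CPM, and the others had means of 1.27 CPM or less. Striated muscle markers were at 28.7 to 34.3, 3.14 to 5.61 and 2.57 to 5.64 CPM, with 3, 4 and 3 of 6 above 3 counts in every library and Myod1 and Tnnt3 at 0 with LIF2i. Mylpf made up 20.3 to 29.3 CPM of the first range. On withdrawal 2 of the 4 tested muscle markers were called as lowered and 1, Myod1, as raised. The part of these marker shifts in the results that follow was not tested, and in bulk RNA a change in the number of cells of a type cannot be told apart from a change in RNA per cell.

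Pacsin2 and Cavin1 were the abundant members. On the TPM scale, which is corrected for transcript length, Pacsin2 was at 63.4 ± 18.5 (SD, n = 3) with LIF2i, 44.6 ± 6.78 without and 43.2 ± 7.75 with CK666. Cavin1 came next, at 26.2 ± 10.1 TPM, 16.2 ± 4.64 TPM and 12.2 ± 3.07 TPM in the same order. In all 3 groups the libraries of Pacsin2 lay above those of Cavin1, and those of Cavin1 above every other member, with no overlap. The remaining 5 genes had group means of 0 to 2.01 TPM, and with LIF2i each of Cav1, Cavin3, Ehd2, Cavin2 and Cav2, in that order, overlapped its neighbour, while Cavin3 and Ehd2 did not overlap Cav2. The gap between Cavin3 and Cav2 was 0.0876 against 0.0861 TPM, from 2 counts and 1 count, both under the floor. Cav1 led this order through replicate 1, at 1.42 TPM against 0.174 and 0.034. Without LIF2i the order was Ehd2, Cavin3, Cav1, Cav2 and Cavin2, again with overlap between all neighbours. The place of Ehd2 there rests on replicate 1, at 4.42 TPM against 0.690 and 0.922, and 2.67 TPM of it came from 3.6 estimated counts of Ehd2-202, a transcript of 375 bases. With CK666 the order was Cav1, Ehd2, Cavin3, Cav2 and Cavin2, and the libraries of Cavin3 and Cav2, and of Cav2 and Cavin2, did not overlap, although Cav2 and Cavin2 there rest on counts of 6 or fewer per library. The place of Cav1 in that group rests on replicate 1 as well, at 4.22 TPM against 0.0318 and 0.033. Of 21820 protein-coding genes, 11.3% had a higher mean TPM than Pacsin2 with LIF2i, 23.8% a higher one than Cavin1, and 59.8% a higher one than Cav1. That rank of Cav1 uses a mean carried by replicate 1. In self-renewing cells Cavin1 had 921 to 1497 estimated counts per library, while Cav1 had 1 to 6 and Cav2 had 0 or 1.

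**Figure D1:**
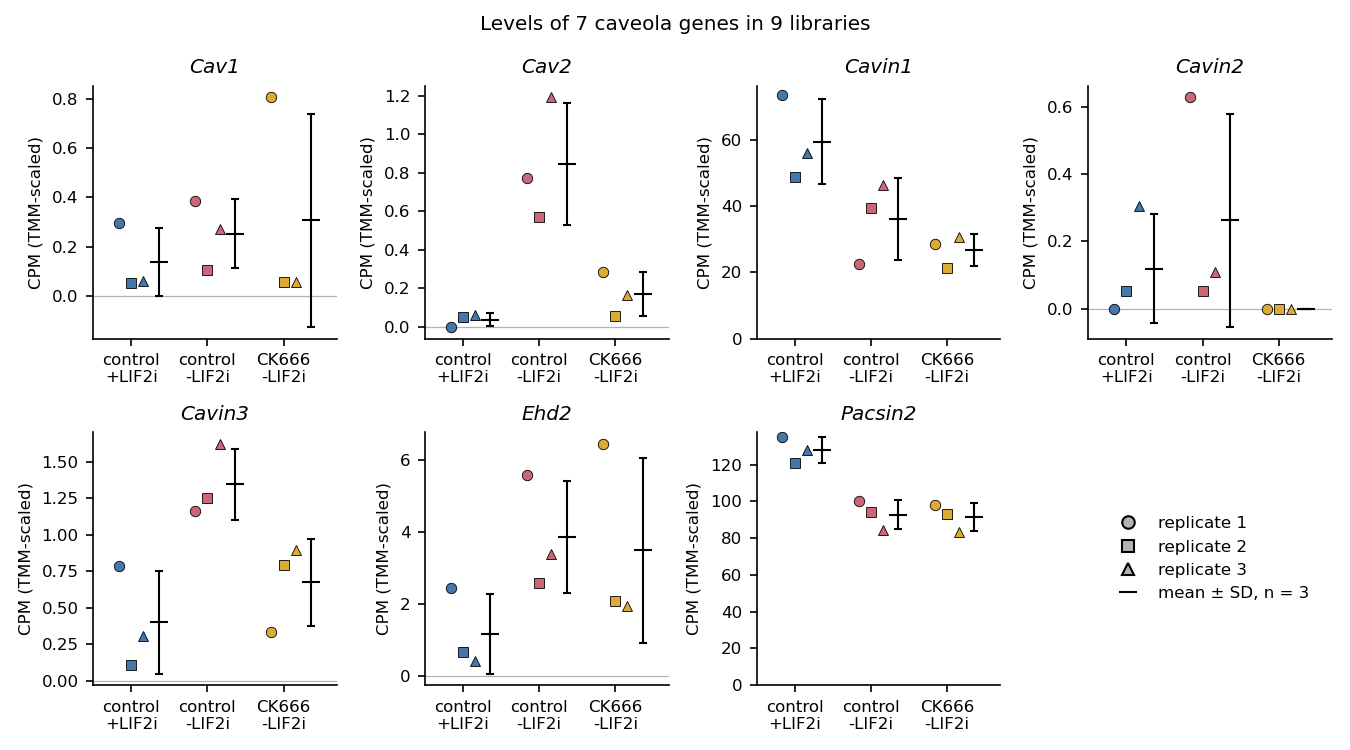
TMM-scaled CPM (vertical axes, linear, a separate scale per gene) of the 7 genes in the 3 groups, with a point per library shaped by replicate number and the mean ± SD (n = 3) beside it. Cavin1 and Pacsin2 lie at 21.3 CPM or more, the other genes at 6.45 CPM or less, and Cav2 reaches 0.571 to 1.19 CPM in control cells without LIF2i.

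Cav2 (chromosome 6, 17281185 to 17289115, plus strand, GRCm38) lies upstream of Cav1 (17306335 to 17341452, plus strand), with 17219 bases between them. Cav2 had 0, 1 and 1 estimated counts in replicates 1, 2 and 3 with LIF2i, 16, 11 and 22 counts without, and 6, 1 and 3 counts with CK666. Every library without LIF2i and without drug was above every library of the other groups, and with LIF2i all libraries were under the floor. Summed over the group, 49 counts against 2 give a ratio of 24.6 for withdrawal, with a 95% counting interval of 6.47 to 209. With CK666 the sum was 10 counts, 4.80-fold lower than in the controls and 5.14-fold higher than with LIF2i (1.09 to 48.2). Without replicate 1 these ratios were 16.6 for withdrawal, 7.72-fold lower for CK666 and 2.14-fold higher against LIF2i (0.307 to 23.7). The intervals show how little the 2 counts with LIF2i fix these ratios and are no test of differences that the choice of genes used. The fitted log2 fold changes were 4.27 (SE 1.03) for withdrawal and -2.26 (SE 0.83) for CK666, and both comparisons use the same control libraries. The full-length transcript Cav2-201 held 14.4, 11 and 22 of the counts without LIF2i. Cav2 passed the expression filter only through the group in which it was high, with 3 of 3 libraries at the cutoff of 0.541 CPM there and 0 in the others, so its presence among tested genes is no evidence of a difference. Even in that group 61.6% of protein-coding genes had a higher mean TPM.

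The counts of Cav1 were too low to settle a difference. It had 6, 1 and 1 counts with LIF2i, 8, 2 and 5 without, and 17, 1 and 1 with CK666, and the groups overlapped in every pairing. It was higher without LIF2i than with it in 3 of 3 pairs, and with CK666 it was lower than in controls in 2 of 3. Replicate 1 held the highest count of each group. In the CK666 library of replicate 1, 10.6 of the 17 counts were assigned to Cav1-203, a transcript of 613 bases, and 6.4 to Cav1-210, which is annotated as a target of nonsense-mediated decay, while the transcript Cav1-201 of 2522 bases had 0.0. Summed counts of 15 without and 8 with LIF2i gave a ratio of 1.89 (95% counting interval 0.751 to 5.14), and 3.51 (0.669 to 34.7) without replicate 1. The ratio of CK666 to control cells was 1.29 (0.623 to 2.74), and 0.305 (0.0309 to 1.60) without replicate 1, so its direction rests on that replicate. CK666 against self-renewing cells gave 2.44 (1.02 to 6.44) and, without replicate 1, 1.07 (0.0777 to 14.8). Cav1 did not pass the expression filter. When all genes with a count were tested, its edgeR adjusted p-values were 0.60 (withdrawal), 0.97 (CK666 against controls) and 0.72 (CK666 against self-renewing cells).

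The start regions of the caveolin pair are shown because the genes are neighbours and only Cav2 passed the filter. The windows run from 250 bases before to 50 after the start site, from RefSeq (GRCm38.p6), with motif matches on either strand in capitals.
Cav2 chr6:17280935-17281234, plus strand: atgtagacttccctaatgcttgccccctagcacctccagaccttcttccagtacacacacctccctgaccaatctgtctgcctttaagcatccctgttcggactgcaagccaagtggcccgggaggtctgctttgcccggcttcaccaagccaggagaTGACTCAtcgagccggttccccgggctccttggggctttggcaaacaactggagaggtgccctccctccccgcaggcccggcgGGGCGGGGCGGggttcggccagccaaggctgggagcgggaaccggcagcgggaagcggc
Cav1 chr6:17306085-17306384, plus strand: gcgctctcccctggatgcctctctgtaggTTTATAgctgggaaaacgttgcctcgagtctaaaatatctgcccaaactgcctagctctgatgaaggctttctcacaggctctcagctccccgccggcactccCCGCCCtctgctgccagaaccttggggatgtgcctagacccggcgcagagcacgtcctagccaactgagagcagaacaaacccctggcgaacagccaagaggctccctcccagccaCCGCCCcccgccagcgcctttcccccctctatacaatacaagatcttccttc
Motifs searched, by letters and on both strands, were the AP-1 motif TGANTCA, the TEAD motif GGAATG, the GC box GGGCGG, the TATA box TATAAA and, by name, the CArG box of SRF. The Cav2 window held the AP-1 letters from -92 to -86 and a pair of overlapping GC boxes between -9 and 2, counted from 1 at the start site. The first Cav1 window held, all on the other strand, GC boxes from -118 to -113 and from -2 to 4 and TATA letters from -221 to -216. Among 32851 windows of this length, 7.81% held the AP-1 letters, 35.7% the GC box and 13.6% the TATA letters, and the matches are a description of these windows. The CArG box, in 1.63% of all windows, and the TEAD letters, in 14.7%, were in neither of the windows printed. G and C made up 64.3% of the Cav2 window and 59.3% of this Cav1 window, with 16 and 13 CpG, against medians of 52.7% and 7. RefSeq gives Cav1 a further start, whose window, chr6:17307390-17307689, was 62.3% G and C with 16 CpG and held none of the 5 motifs.

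Cavin1 (chromosome 11, 100956733 to 100970887, minus strand) was highest in self-renewing cells. Its level was 73.6, 48.7 and 55.9 CPM with LIF2i in replicates 1, 2 and 3, 22.5, 39.5 and 46.3 CPM without, and 28.5, 21.3 and 30.5 CPM with CK666. On this scale the groups with LIF2i and the other groups did not overlap, while those without LIF2i, with and without the drug, did. On the TPM scale the control groups overlapped as well, with 18.9 TPM with LIF2i in replicate 2 and 19.7 TPM without in replicate 3. For withdrawal the log2 fold change was -0.73 (SE 0.26, lower in 3 of 3 pairs, edgeR adjusted p 0.0498), at the edge of the threshold of 0.05. The call held in 2 of 19 alternatives, with adjusted p of 0.024 to 0.18, and without replicate 1 the change was -0.26 (edgeR adjusted p 0.15). It was -0.32 without the control -LIF2i library of replicate 1 alone and -0.43 without the control +LIF2i library of replicate 1 alone. Without the replicate block the edgeR adjusted p was 0.098. For withdrawal in the presence of CK666, against self-renewing cells, Cavin1 fell by 1.16 (SE 0.26, edgeR adjusted p 0.0076, lower in 3 of 3 pairs), 2.24-fold, and this call held in 19 of 19 alternatives. Between CK666 and control cells without LIF2i the difference was -0.43 (95% interval -1.02 to 0.16, edgeR adjusted p 0.40), with replicate 1 higher and replicates 2 and 3 lower. Without replicate 1 that difference was -0.76 (SE 0.14, edgeR adjusted p 0.0099), its only call in 19 alternatives. It was -0.82 without the control -LIF2i library of replicate 1 alone, -0.19 without that of replicate 2, -0.26 without that of replicate 3 and -0.21 without all of replicate 2.

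The other coat genes were scarce. Cavin3 (chromosome 7, 105480083 to 105482300, minus strand), also known as a partner of protein kinase C delta, had 16, 2 and 5 counts with LIF2i, 24, 24 and 30 without, and 7, 14 and 16 with CK666. The control libraries without LIF2i lay above those of each of the other groups, which overlapped each other. The withdrawal change of 1.77 (SE 0.78) did not pass (edgeR adjusted p 0.099, 3 of 3 pairs higher), and the difference with CK666 was -0.98 (95% interval -2.62 to 0.67, edgeR adjusted p 0.51, 3 of 3 pairs lower). Against self-renewing cells the CK666 value was 0.79 (SE 0.81, edgeR adjusted p 0.48). With LIF2i, 16 of 23 counts came from replicate 1. Without that replicate in any group the withdrawal change was 2.85 (edgeR adjusted p 0.0077) and the change of CK666 against self-renewal 2.08 (edgeR adjusted p 0.041). Leaving out the control +LIF2i library of replicate 1 alone gave a withdrawal change of 3.00 (edgeR adjusted p 0.0084), and limma on log2(TPM + 1) also called the withdrawal change, at 0.74 (limma adjusted p 0.044). Other libraries moved the values the other way. The withdrawal change was 1.20 without the control +LIF2i library of replicate 2 and 1.27 without all of replicate 2 (edgeR adjusted p 0.30 and 0.41). Without replicate 2 the CK666 value against self-renewal was 0.04 (edgeR adjusted p 0.98), and without the control +LIF2i library of replicate 2 alone it was 0.16. The difference between CK666 and control cells was -0.47 without the CK666 library of replicate 1 and -1.48 without that of replicate 2, and it was called in 0 of 19 alternatives. Cavin3 shares 22.5% of its exonic bases with Gm45667 on the other strand, and since the labels do not state stranded counting, reads from the pair cannot be told apart there.

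Cavin2 (chromosome 1, 51289126 to 51302960, plus strand), a phosphatidylserine-binding coat protein, had 0, 1 and 5 counts with LIF2i, 13, 1 and 2 without, and 0 in each of the CK666 libraries. Of the 16 counts without LIF2i, 13 came from replicate 1, and the other libraries, with 1 and 2 counts, were under the floor. The 0 of the CK666 libraries against 16 gave a counting interval for the ratio of 0 to 0.265, and 0 to 2.59 without replicate 1. Cavin2 did not pass the expression filter, and without that filter its edgeR adjusted p-values were 0.79 (withdrawal), 0.34 (CK666 against controls) and 0.26 (CK666 against self-renewing cells).

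Ehd2 (chromosome 7, 15946958 to 15967567, minus strand) was called as raised on withdrawal. It stood at 2.46, 0.680 and 0.425 CPM with LIF2i in replicates 1, 2 and 3, at 5.60, 2.60 and 3.40 CPM without, and at 6.45, 2.09 and 1.95 CPM with CK666. Replicate 1 was the highest library of every group, the control groups with and without LIF2i did not overlap, and the CK666 group overlapped both. On the TPM scale the control groups did overlap, with 0.838 TPM with LIF2i in replicate 1 and 0.690 TPM without in replicate 2. With the replicate number as a block Ehd2 rose 3.87-fold on withdrawal, or by 1.95 on the log2 scale (SE 0.42, higher in 3 of 3 pairs, edgeR adjusted p 0.0051). Without the block the change was 1.69 and was not called (edgeR adjusted p 0.13), and it was not called either without the replicate 3 libraries, at 1.53 (edgeR adjusted p 0.067). Without replicate 1 it was 2.44 (edgeR adjusted p 0.0031). CK666 cells were also above self-renewing cells, by 1.63 (SE 0.41, higher in 3 of 3 pairs, edgeR adjusted p 0.013). That call was lost in 6 of 19 alternatives: without the block (edgeR adjusted p 0.17), with limma on log2(TPM + 1), without the CK666 library of replicate 1 (0.066), without the control +LIF2i library of replicate 3 (0.056), and without all replicate 2 (0.077) or replicate 3 libraries (0.085). CK666 and control cells without LIF2i differed by -0.32 (95% interval -1.19 to 0.55, edgeR adjusted p 0.70), an interval that spans from 0.438-fold to 1.46-fold.

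Pacsin2 (chromosome 15, 83375607 to 83464606, minus strand), the most abundant member, fell modestly on withdrawal. Its level was 135, 121 and 128 CPM with LIF2i, 100, 94.1 and 84.2 CPM without, and 98.3, 93.0 and 83.5 CPM with CK666. On this scale all libraries with LIF2i were above all others, and the groups without LIF2i nearly coincided within each replicate number. On the TPM scale the library with LIF2i of replicate 2, at 47.8 TPM, was below those of replicate 1 without LIF2i, at 52.3 TPM in controls and 51.9 TPM with CK666. Withdrawal lowered it 1.38-fold, by a log2 change of -0.46 (SE 0.10, lower in 3 of 3 pairs, edgeR adjusted p 0.0070), and CK666 cells differed from self-renewing cells by -0.48 (SE 0.10, lower in 3 of 3 pairs, edgeR adjusted p 0.0065). Without the replicate 3 libraries neither was called, at -0.39 and -0.41 (edgeR adjusted p 0.13 and 0.12), and withdrawal was not called either without the control -LIF2i library of replicate 3 (edgeR adjusted p 0.0537). The difference between CK666 and control cells was -0.02 (SE 0.10, edgeR adjusted p 0.94), with a 95% interval of 0.838-fold to 1.16-fold.

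Of the 6 members other than Cav2, 4 were tested, and the edgeR quasi-likelihood test, Benjamini-Hochberg adjusted over 14648 genes, called 3 on withdrawal, Ehd2 raised and Cavin1 and Pacsin2 lowered, where 40.7% of all tested genes were called, 21.1% raised and 19.7% lowered. For CK666 against controls 0 of 4 were called and 0 had an unadjusted p under 0.05, and DESeq2 and limma also called 0, beside 2.05% of all tested genes called, 1.15% raised and 0.894% lowered. For CK666 against self-renewal 3 were called, again Ehd2 raised and Cavin1 and Pacsin2 lowered, beside 36.9% of all genes. The comparisons share libraries, so the repeated pattern is not independent support, and since the choice of genes used these contrasts nothing is read from the shares. On the CPM scale 40.7% of tested genes had no overlap between the control groups, 16.5% between CK666 and controls without LIF2i, and 37.3% between CK666 and self-renewing cells.

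**Figure D2:**
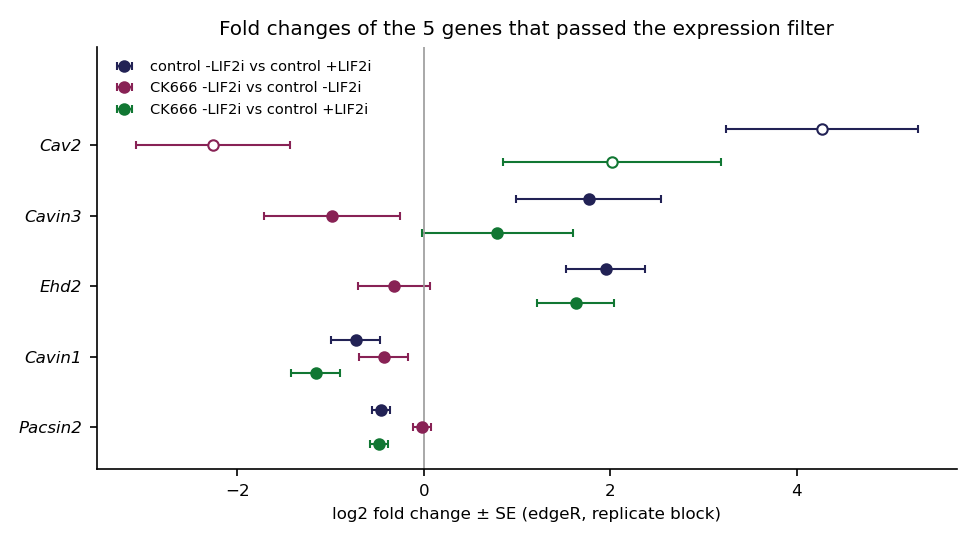
Log2 fold change ± SE (horizontal axis, edgeR with the replicate block, 3 libraries per group) of the 5 genes that passed the expression filter, coloured by comparison, with open symbols for Cav2, which was not tested. Ehd2 lies right of 0 and Cavin1 and Pacsin2 left of 0 in both comparisons with self-renewing cells, and Pacsin2 is at -0.02 between CK666 and control cells.

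The values of single Pacsin2 transcripts, which were not tested, differed in size and direction. Of its 11 annotated transcripts in the files, 5 have the same coding exons (1458 coding bases) and differ in their noncoding exons. Pacsin2-203 begins at 83464606, and Pacsin2-210 and Pacsin2-202 begin 31782 bases or more downstream, at 83432824 and 83432815. Pacsin2-202 differs from Pacsin2-210 in its first exon, which has 88 bases more at its 3′ end and 9 fewer at its 5′ end, so the assignment of reads between them rests on a short stretch. Pacsin2-202 was at 9.42, 8.69 and 8.96 TPM with LIF2i, from 338, 414 and 341 estimated counts, and was listed at 0 in all 3 control libraries without LIF2i. With CK666 it was at 0, 0.827 and 0 TPM, the middle value resting on 34 estimated counts. It made up 14.9% ± 3.49 (SD, n = 3) of the gene's TPM in self-renewing cells, and its libraries there lay above all others with no overlap. For comparison, 40.7% of tested genes had no overlap on the CPM scale between the control groups, and 37.3% between CK666 and self-renewing cells. How many single transcripts did so was not computed.

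The other main transcripts of Pacsin2 differed less. Pacsin2-210 was at 15.3, 10.7 and 22.5 TPM with LIF2i, 20.1, 12.0 and 14.7 TPM without, and 25.8, 16.7 and 18.5 TPM with CK666, and the groups overlapped. It was higher with CK666 than in controls without LIF2i in each of the 3 replicate numbers. Pacsin2-203 was at 42.1, 24.5 and 20.0 TPM with LIF2i, 29.1, 24.7 and 19.3 TPM without, and 20.9, 19.6 and 17.0 TPM with CK666, lower with the drug in each replicate number. Transcripts with the upstream start together made up 55.6, 52.1 and 43.0% of Pacsin2 TPM with LIF2i, 61.1, 63.8 and 54.3% without, and 47.9, 52.0 and 47.3% with CK666. Those with the internal start made up 29.5, 40.6 and 53.7%, then 38.4, 28.8 and 37.0%, then 49.8, 43.1 and 49.8%. Between CK666 and control cells without LIF2i the internal share did not overlap, at 47.6% ± 3.85 against 34.7% ± 5.22. The upstream share did not overlap either, but the shares are near complements, so this is not a separate observation. Among tested genes 16.5% had no overlap between these groups on the CPM scale, and the percentage over transcript shares was not computed. These shares were chosen after their values were seen and were not tested. Pacsin2-203 also reaches 511 bases further at its 3′ end than Pacsin2-202, so its assignment uses reads at both ends.

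**Figure D3:**
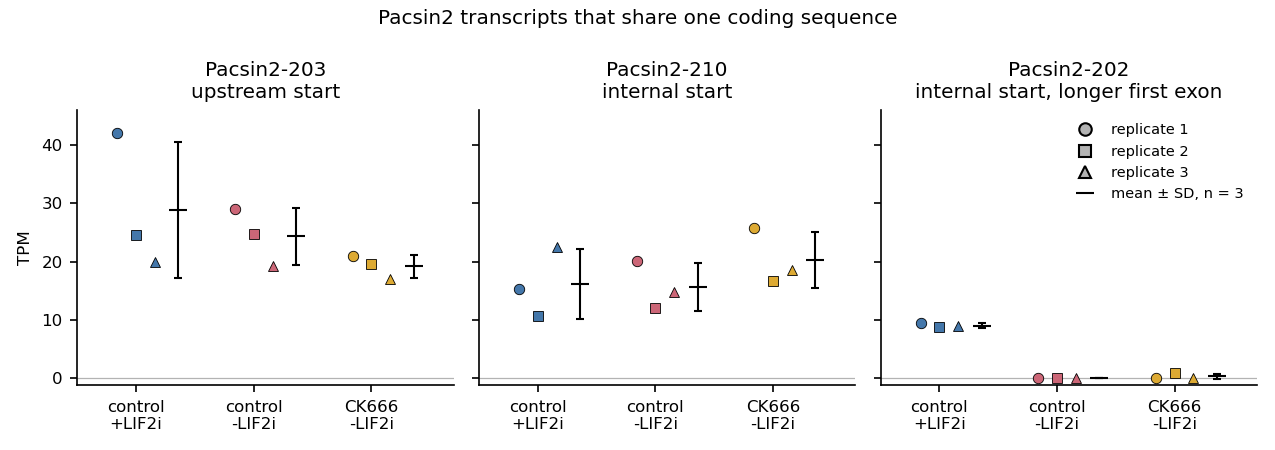
TPM (vertical axis, linear) of 3 Pacsin2 transcripts with the same coding exons, with a point per library shaped by replicate number and the mean ± SD (n = 3). Pacsin2-202 stands at 8.69 to 9.42 TPM in self-renewing cells and at 0 to 0.827 TPM in the other libraries, while the groups overlap for Pacsin2-210.

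The windows at the 2 start regions that the transcript values turn on are shown for Pacsin2. They run from 250 bases before to 50 after each RefSeq start (GRCm38.p6, minus strand), in the direction of transcription, with matches to the motifs searched above in capitals. The internal RefSeq start lies slightly upstream of the starts of Pacsin2-210 and Pacsin2-202 given above, which fall inside the window.
Pacsin2 upstream start chr15:83464557-83464856, minus strand: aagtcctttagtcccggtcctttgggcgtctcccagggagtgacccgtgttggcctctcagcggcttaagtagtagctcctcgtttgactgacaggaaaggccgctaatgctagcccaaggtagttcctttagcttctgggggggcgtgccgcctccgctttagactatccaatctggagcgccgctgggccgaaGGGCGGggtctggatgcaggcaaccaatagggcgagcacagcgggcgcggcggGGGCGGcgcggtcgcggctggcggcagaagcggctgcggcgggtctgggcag
Pacsin2 internal start chr15:83432801-83433100, minus strand: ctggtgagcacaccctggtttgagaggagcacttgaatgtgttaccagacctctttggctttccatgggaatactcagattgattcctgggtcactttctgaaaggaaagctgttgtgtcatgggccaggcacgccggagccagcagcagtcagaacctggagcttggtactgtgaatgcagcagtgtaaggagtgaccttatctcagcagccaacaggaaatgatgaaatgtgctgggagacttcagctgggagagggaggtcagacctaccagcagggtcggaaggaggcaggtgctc
The upstream window was 65.3% G and C with 27 CpG, and held GC boxes from -55 to -50 and from -2 to 4. The internal window was 53.3% G and C with 3 CpG, against medians of 52.7% and 7 over all windows, and held none of the 5 motifs. Another RefSeq window of Pacsin2, chr15:83447831-83448130, not printed here, held the AP-1 letters from -152 to -146. Cavin1, whose RefSeq starts give a pair of windows 2 bases apart, held the TEAD letters near the far end and a GC box in both, Ehd2 held GC boxes and Cavin2 held none of the motifs. A window was found for 6 of the 7 genes, the exception being Cavin3.

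Genes that work beside these proteins were followed in a list of 15, of which 14 passed the filter and Cav3, the muscle caveolin, had 0 counts in all libraries. For withdrawal 4 were raised and 3 lowered by edgeR's test, beside 21.1% and 19.7% of all genes, and the median log2 fold change was 0.15 against 0.01 over all tested genes. Ror1, a receptor tyrosine kinase that binds caveolin and cavin, was at 0, 0.105 and 0.850 CPM with LIF2i and 11.7, 5.71 and 5.61 CPM without, a rise by 4.73 on the log2 scale (SE 0.85, edgeR adjusted p 0.0021). Flna, an actin crosslinker that binds Cav1, rose by 1.21 (SE 0.25, edgeR adjusted p 0.0041), and the Pacsin2 relatives Pacsin1 and Pacsin3 rose by 0.83 (SE 0.28) and 0.59 (SE 0.16), with edgeR adjusted p of 0.042 and 0.017. Src, the kinase for which Cav1 is a classical substrate, fell by 0.80 (SE 0.11, edgeR adjusted p 4.1e-04). Dnm2, the GTPase that cuts vesicles from the membrane, fell by 0.54 (SE 0.11, edgeR adjusted p 0.0033), and Ehd1, an Ehd2 relative of recycling endosomes, fell by 0.54 (SE 0.14, edgeR adjusted p 0.012). Without the replicate block 1 was raised and 2 were lowered, and without replicate 1 the counts were 5 and 2. Without replicate 3 they were 1 and 1. Raised genes numbered 2 without the control -LIF2i library of replicate 1 or 3, without the control +LIF2i library of replicate 3, or without replicate 2, with 2 or 3 lowered, and with the effective length offset or limma 2 were raised and 2 lowered. Ror1 and Src were called in 19 of 19 alternatives, Dnm2 in 18, Flna in 16, Ehd1 in 12, Pacsin3 in 10 and Pacsin1 in 6.

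CK666 moved 0 of the 14 past the threshold against controls in the edgeR fit of all libraries, by DESeq2 or by limma, with 2 at an unadjusted edgeR p under 0.05, beside 2.05% of all genes called. The median was -0.13 against 0.02 over all genes. Ror1 was at 4.55, 1.98 and 3.18 CPM with CK666, under every control library without LIF2i, a log2 difference of -1.29 (SE 0.66, edgeR adjusted p 0.32). Without the control +LIF2i library of replicate 1, which is in neither group, 2 were called as lowered, Ror1 and the Ehd2 relative Ehd4, which is named here after its values were seen. Against self-renewing cells 5 were raised and 4 lowered, beside 19.8% and 17.1% of all genes. Ror1 was raised by 3.44 (SE 0.84, edgeR adjusted p 0.011), Flna by 1.09 (SE 0.25, edgeR adjusted p 0.0076), Pacsin1 by 0.98 (SE 0.28, edgeR adjusted p 0.023) and Ehd3, a further Ehd2 relative, by 0.92 (SE 0.30, edgeR adjusted p 0.037). Ehd1 fell by 0.84, Src by 0.82, Dnm2 by 0.70 and Flot1, a membrane raft protein, by 0.51, with edgeR adjusted p of 0.0015, 4.1e-04, 9.1e-04 and 0.038. Without the replicate block this comparison had 1 raised and 2 lowered, and without replicate 2 or replicate 3 it had 1 and 3. It had 2 raised and 3 lowered without the control +LIF2i or the CK666 library of replicate 3, and 3 and 3 without either of those groups' library of replicate 2. Src and Dnm2 were called in 19 of 19 alternatives, Ror1 in 18, Flna and Ehd1 in 16, Pacsin1 in 13, Ehd3 in 8 and Flot1 in 6.

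The machinery of clathrin-coated pits, the other main route of uptake, was read beside the caveola genes. All 13 genes of that list passed the filter, and for withdrawal 0 were raised and 5 lowered by edgeR, beside 21.1% and 19.7% of all tested genes. The median was -0.27 against 0.01 over all genes. Cltb, a clathrin light chain, was at 25.0, 68.9 and 62.5 CPM with LIF2i and 7.09, 11.2 and 13.1 CPM without, a fall by 2.25 (SE 0.22, edgeR adjusted p 7.3e-05). Fcho1, a nucleator of the pits, fell by 0.61, the adaptor subunits Ap2a1 and Ap2b1 by 0.41 and 0.36, and the heavy chain Cltc by 0.37, with edgeR adjusted p of 0.0091, 0.014, 0.036 and 0.034. Without the block 2 of 13 were lowered, and 0 were raised in any of the 19 alternatives. The count lowered was 5 without the CK666 library of replicate 1, 4 without the control +LIF2i library of replicate 3 or all of replicate 1, and 1 to 3 in each other fit that left out a library or a replicate number. Cltb was called in 19 of 19 alternatives, Fcho1 in 15, Ap2a1 in 13, Ap2b1 in 5 and Cltc in 4, and limma called Cltb and Ap2a1 alone. With CK666 0 of the 13 were called against controls in the edgeR fit of all libraries, by DESeq2 or by limma, beside 2.05% of all genes, and 4 had an unadjusted edgeR p under 0.05. Itsn1, an endocytic scaffold, was higher with CK666 in 3 of 3 pairs, by 0.40 (SE 0.11, edgeR adjusted p 0.091), and it was called as raised with the effective length offset and without the control +LIF2i library of replicate 1. Against self-renewal 1 was raised and 2 lowered, beside 19.8% and 17.1% of all genes. Itsn1 was raised by 0.37 (edgeR adjusted p 0.026), a call lost without the block, without the CK666 library of replicate 1 or 3, without the control +LIF2i library of replicate 3, and without all of replicate 2 or replicate 3. Cltb fell by 2.54 and Fcho1 fell by 0.73 (edgeR adjusted p 5.2e-05 and 0.0045), and both were called in 19 of 19 alternatives. Whether the caveola and clathrin lists differ was not tested.

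**Figure D4:**
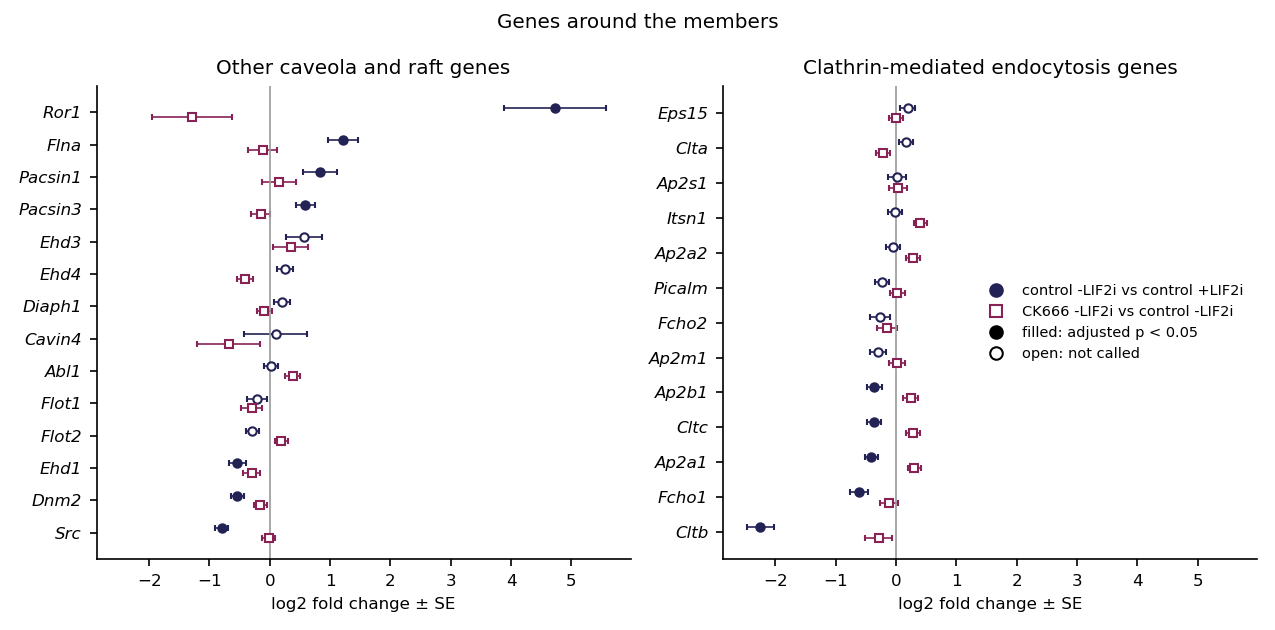
Log2 fold change ± SE (horizontal axes) of 14 caveola partners and 13 clathrin genes for withdrawal (circles) and for CK666 against controls (squares), ordered by the withdrawal change, with filled symbols at an edgeR adjusted p under 0.05. No square is filled, and Ror1 and Cltb lie farthest from 0 for withdrawal, at 4.73 and -2.25.

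The genes most like Cav2 and Cavin1 in pattern were ranked by Pearson r of log2 CPM over the 9 libraries, after removing the mean of each replicate number. Candidates were tested protein-coding genes whose log2 CPM averaged 3 or more. For Cav2 the nearest of 9498 were Ints13 (r 0.997), a subunit of the Integrator complex, then Anxa11 (0.992), Ankrd27 (0.991), Slc27a2 (0.991) and Itpripl1 (0.991). For Cavin1 the nearest of 9497 were Golgb1 (r 0.995), a Golgi tether, then Zbtb1 (0.986), Zcchc17 (0.983), BC048403 (0.982) and Pigm (0.970). The points share 3 groups and 3 replicate numbers, these are the highest values of a search over all candidates, and those of Cav2 rest on 0 to 22 counts per library, so they describe likeness over these libraries and no more. Cav1 did not pass the expression filter and was not ranked.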

How the data were processed

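Reads were quantified per transcript by the authors; the submitters' processing notes name FastQC, cutadapt 1.8.1, kallisto and sleuth, and the builds mm10 and GRCh38, while the transcript release and strand setting are not given in the sources used here. The deposited estimated counts per transcript are not normalised, and the deposited TPM values, named per the file headers, are by definition corrected for transcript length and scaled to a fixed total. Effective lengths, a further deposited column, entered 1 alternative. Transcripts were assigned to genes with GENCODE M21 (GRCm38), which may not be the authors' release; 116640 of 119414 (97.7%) matched, and the rest held 0.895 to 1.08% of a library's counts. Counts were summed per gene and rounded, and 14648 genes passed edgeR's filter, of which 5 are described here as members.

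All 9 libraries entered a robust quasi-likelihood fit (edgeR 4.0.16, R 4.3.3, TMM scaling) with the replicate number as block, leaving 4 residual degrees of freedom, and a gene was called where its adjusted p-value (Benjamini-Hochberg) was under 0.05. The series' design text describes the replicates as paired; deviations from group means of same-numbered libraries correlated at 0.30 to 0.65. SE was derived from the test statistic. Alternatives used DESeq2 1.42.0, limma 3.58.1 and the settings named in the closing section. Tested on counts simulated for the CK666 comparison over 14648 genes, the fit recovered 56 of 100 changes of log2 size 1 and 76 of 100 of size 2, with 9 false calls. The changed genes were drawn at random from all those tested, so this recovery is pooled over expression levels. It was not computed for genes as scarce as Cavin3 and Ehd2. What same-numbered libraries share, and whether replicates were separate cultures, is not stated, so p-values measure the spread between these samples, which may be in part technical.

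The members, lists and tests were chosen with earlier results of these data known. Genes named are the members, called genes of the partner and clathrin lists (largest changes first, at most 8 per list and comparison), and the 5 genes most like each of Cav1, Cav2 and Cavin1 where these passed the filter. The transcripts of Pacsin2 were chosen after their values were seen.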

Additional observations from a re-analysis of the deposited data

How the results depend on the processing

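The results were recomputed under 19 alternatives: no replicate block, DESeq2, RLE size factors in edgeR, no filter on low counts, an effective length offset, limma with either pseudocount, and the fits without a library or a replicate number. With RLE size factors the withdrawal call of Cavin1 was lost (edgeR adjusted p 0.060). Without the replicate block, 1 of the 4 tested members other than Cav2 was called for withdrawal (Pacsin2) beside 3 with it, 0 with CK666 against controls and 2 against self-renewal; over all genes the counts without the block were 3509, 0 and 2966, beside 5967, 300 and 5408. Leaving out libraries gave 0 to 3 members for withdrawal, lowest without the replicate 3 libraries and 1 without the control -LIF2i library of replicate 3, 0 to 1 for CK666 against controls, with Cavin1 called without the replicate 1 libraries, and 1 to 4 against self-renewal, lowest without the replicate 3 libraries. Over all genes these fits called 3099 to 6588, 0 to 1811 and 2413 to 6129. For CK666 the number of genes called was also 1103 with DESeq2, 565 without the filter, 148 with the length offset, and 42 and 23 with limma on log2(TPM + 1) and log2(TPM + 0.1). The difference of Ehd2 between CK666 and control cells ranged from -0.66 to 0.04 over the fits without a library, positive without the control -LIF2i library of replicate 3, and that of Pacsin2 from -0.06 to 0.01, positive at 0.01 without the control -LIF2i library of replicate 2 and at 0.01 without the CK666 library of replicate 3; none of these was called. The fitted change of Cav2 ranged from 0.57 to 4.97 for withdrawal and from -3.05 to -0.42 for CK666, with the smallest sizes from log2(TPM + 1), where the pseudocount exceeds its level; its direction was fixed by the choice of genes and is no sign of stability. Fits without a replicate have fewer samples; the cause of the other changes was not tested. Cav1, Cav2 and Cavin2 had 0 to 22 counts per library, and the counting intervals of their ratios are wide.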
